A study of Mus musculus with 6 samples.

Results

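Aortic constriction with vehicle (TAC_DMSO) was compared with sham surgery across all genes measured in cardiomyocyte-enriched populations of mouse hearts. The comparison used 4 of the 6 arrays of the series, 2 of TAC_DMSO and 2 of sham, chosen by their labels. In TAC_DMSO, C57BL/6J mice had transverse aortic constriction and received DMSO, for a time that the labels do not state. In sham, C57BL/6J mice had sham surgery, and no vehicle is named, so constriction and vehicle cannot be told apart. The other 2 arrays (TAC_BIX) held constriction with BIX-01294, an inhibitor of the histone H3 lysine 9 methyltransferases G9a and GLP, given for 1 week from subcutaneous osmotic pumps. They entered the model for its estimate of the spread, and their levels are set beside the others for some genes. The sources used here do not give the age or sex of the mice, the number of mice behind an array, the time between surgery and collection, or the time of day. The submitters call the 2 arrays of a group biological replicates, and p-values reflect only the spread of such arrays.

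Transverse aortic constriction narrows the aortic arch, so that the left ventricle ejects blood against a raised pressure. Cardiomyocytes under pressure overload enlarge and are known to express again contractile and natriuretic peptide genes of the fetal heart, while interstitial fibroblasts lay down collagen. Genes of fatty acid oxidation and of repolarizing potassium currents are known to be expressed at lower levels in the overloaded ventricle.

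Total RNA was measured on 1-colour Illumina BeadChips, which report the brightness of each probe. Of 45281 probes, 18210 and 17101 were detected on the TAC_DMSO arrays and 16634 and 16827 on the sham arrays. Levels below are normalized signals on the log2 scale, where 1 unit is a doubling, and they were not compared between genes. All 11 tested markers of cardiomyocytes (among them Myh6, Myl2 and Ryr2) were detected on every TAC_DMSO and sham array. Of these 8 had a difference below 0 and 0 were called, with a median difference of -0.15. Under median scaling, an alternative normalization, the median of all genes moved to 0.31. The median of the markers was then 0.05, or -0.26 relative to all genes there. The log2 of their summed signal was 17.50 and 17.58 in TAC_DMSO, against 17.59 and 17.68 in sham. RNA of other cells was present too. Red cell transcripts set the replicates of each group apart: Hbb-bs, a beta globin gene, measured 14.16 and 14.75 in TAC_DMSO, against 13.14 and 10.26 in sham. TAC_DMSO replicate 1 also stood above replicate 2 for fibroblast and leukocyte genes, and sham replicate 2 above sham replicate 1 for leukocyte genes. In such mixed populations, fewer cells of a type and less RNA per cell cannot be told apart.

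Of 10538 genes tested, 43 passed an adjusted p of 0.05 (limma, Benjamini-Hochberg), 22 higher and 21 lower in TAC_DMSO. That is 0.408% of the genes tested, 0.209% higher and 0.199% lower. The differences that passed ran between 1.13 and 3.05 upward and between -1.12 and -2.84 downward, and their adjusted p-values lay between 0.0268 and 0.05. In all 43 genes both TAC_DMSO arrays lay on the same side of both sham arrays, as they did in 24.9% (above) and 29.0% (below) of all genes tested. The number of calls changed when 1 array was left out. Each such fit also has fewer residual degrees of freedom, and leaving out a TAC_BIX array left every difference unchanged. The parts of particular arrays and of the degrees of freedom in the counts below were not tested. No gene passed (0) without sham replicate 1, without sham replicate 2, without TAC_DMSO replicate 1 or without either TAC_BIX array, while between 1469 and 2203 genes had an unadjusted p under 0.05 in those fits. Without TAC_DMSO replicate 2, 166 genes passed, 28 of them among the 43. Of the 43 genes, 17 had several kept probes. Another probe moved the opposite way in 2 of these 17, Afdn and Pigk, and showed less than 0.5 of the difference, or none in the same direction, in 11.

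**Figure D1:**
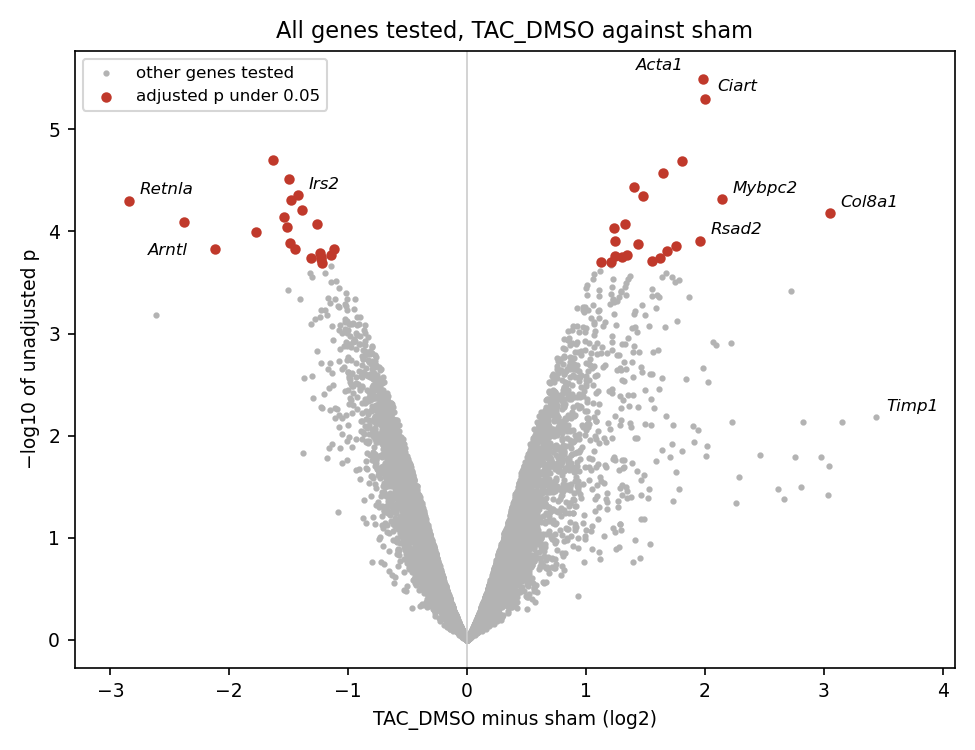
Each point is 1 of 10538 genes, with the log2 difference TAC_DMSO minus sham on the horizontal axis and -log10 of the unadjusted limma p on the vertical axis. The 43 red genes passed an adjusted p of 0.05, and Timp1, with the largest difference at 3.44, did not.

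**Figure D2:**
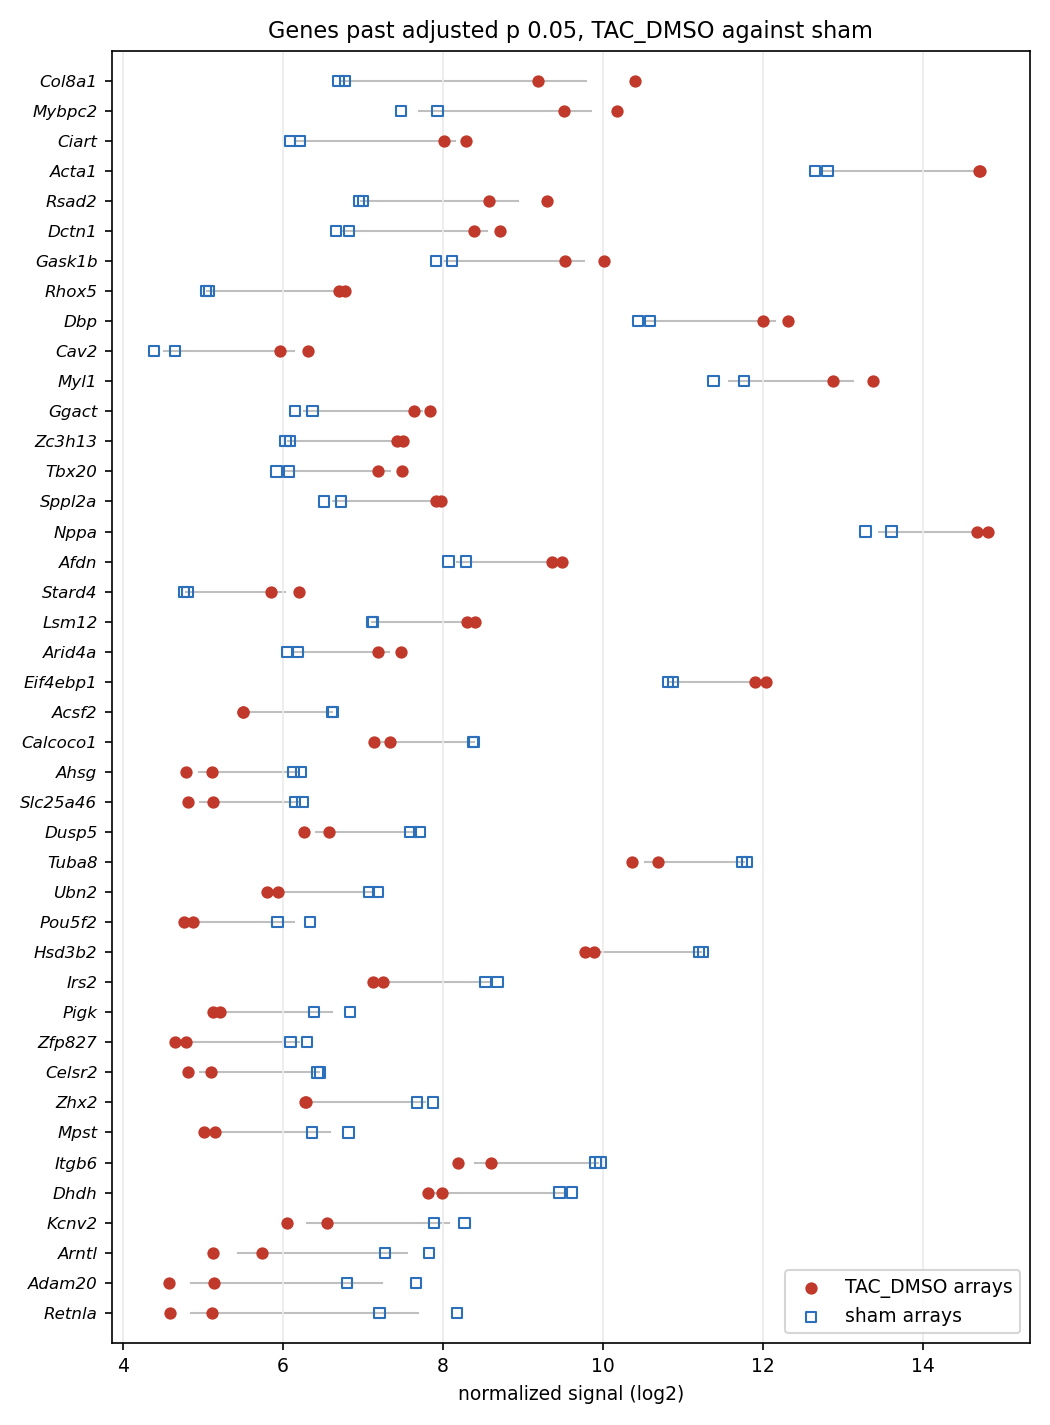
Normalized log2 signal of the 42 named genes that passed, ordered by the difference, with TAC_DMSO arrays as filled circles, sham arrays as open squares and a grey line between the group means. In no gene do the circles and squares overlap, and the 2 TAC_DMSO circles of Col8a1 lie at 10.39 and 9.18.

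Contractile genes of fetal and fast skeletal muscle were among the 22 rises. Acta1, which encodes skeletal alpha-actin, measured 14.70 and 14.71 in TAC_DMSO, against 12.65 and 12.80 in sham. Mybpc2, a thick filament protein of fast skeletal muscle, measured 10.17 and 9.51 in TAC_DMSO, against 7.93 and 7.47 in sham. Myl1, an essential light chain of fast skeletal myosin, measured 13.37 and 12.88 in TAC_DMSO, against 11.76 and 11.38 in sham. In each of the 3 genes both constricted arrays were the high ones and the groups did not overlap, as held for all 43 called genes. Myl1 rose by 1.56 ± 0.23 (SE, log2; adjusted p = 0.0499), and its other 2 probes differed by 0.66 and 2.36. The other 4 skeletal muscle markers tested did not pass: the troponin gene Tnnt3 was not detected in sham and on 1 of the 2 TAC_DMSO arrays, and Tnni2 differed by 0.12 ± 0.28, the creatine kinase gene Ckm by -0.44 ± 0.23 and the regulatory light chain gene Mylpf by -0.69 ± 0.26. Myh1, Myh4, Actn3 and Atp2a1, further skeletal markers, had probes on the array but none passed the detection filter.

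The promoter of Acta1 is shown because it holds sites named for the muscle programme in which the gene takes part. The bases from 98 to 16 before its start (chr8:123894791-123894873, minus strand, GRCm38.p6, RefSeq) are printed from 5′ to 3′, with a CArG box, the serum response factor motif, and an M-CAT element (CATTCC), the TEAD factor motif, in capitals.
Acta1: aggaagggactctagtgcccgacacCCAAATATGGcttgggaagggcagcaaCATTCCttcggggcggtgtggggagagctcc
Of 13 fetal and hypertrophy genes tested, 12 had a promoter sequence, 3 of them with a CArG box (Acta1, Actc1 and Myl7) and 7 with an M-CAT on either strand in the 250 bases before the start. Over all 27025 genes with a promoter sequence, 1.62% had a CArG box and 14.4% an M-CAT. A match is a description of the letters, and binding was not measured.

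Within that list of 13 genes 3 rose, Acta1, Mybpc2 and Nppa, 0 fell, and 8 were above 0. The median was 0.28, beside -0.01 for all genes, of which 48.5% were above 0. Nppa, the gene of atrial natriuretic peptide, measured 14.68 and 14.81 in TAC_DMSO, against 13.28 and 13.60 in sham. Nppb, which encodes B-type natriuretic peptide, measured 14.15 and 13.75 in TAC_DMSO, against 13.47 and 13.20 in sham, groups that did not overlap (adjusted p = 0.141). The highest signal on any array was 14.98, close to the TAC_DMSO levels of Acta1 and Nppa. Whether such a ceiling narrowed their differences or the spread of their replicates was not tested. Myh7, the slow myosin heavy chain, measured 7.56 and 8.78 in TAC_DMSO, against 5.95 and 7.60 in sham, and overlapped. Its other probes differed by 0.76 and 0.80. Myh6, at -0.09 ± 0.17, and the actin gene Actc1, at -0.05 ± 0.20, overlapped too. Tpm2, a tropomyosin gene, differed by 1.07 ± 0.47 (adjusted p = 0.233) and the troponin gene Tnnt1 by -0.37 ± 0.25, both without overlap. Acta2, a smooth muscle gene of the list, differed by 0.18 ± 0.22, and by -0.12 without TAC_DMSO replicate 1. Tagln, another, was detected on 1 of the 2 TAC_DMSO arrays and on 0 sham arrays, with a level at least 1.03-fold that of sham. The atrial light chains went the other way: Myl7 measured 8.71 and 10.04 in TAC_DMSO, against 9.97 and 10.52 in sham, and Myl4 differed by -0.20 ± 0.26. Among 9 atrial markers tested, only Nppa rose and 6 were below 0, with a median of -0.70. That median was -0.21 without TAC_DMSO replicate 1, -0.97 without replicate 2 and -0.25 in the authors' deposited log2 values. The part of atrial tissue in the value of Nppa was not tested. The median of the 13 genes lay at 0.78 without TAC_DMSO replicate 2, at 0.17 without TAC_DMSO replicate 1 and at 0.45 without sham replicate 1.

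Stretch-responsive genes of the Z-disc and titin were above sham more often than below. Of 18 tested, 0 passed and 15 were above 0, with a median of 0.42, which was 0.77 under median scaling and 0.46 relative to all genes there. Both TAC_DMSO arrays lay above both sham arrays in 12 of the 18, beside 24.9% of all genes. Synpo2l, a Z-disc protein of the actin cytoskeleton, measured 9.13 and 9.29 in TAC_DMSO, against 8.23 and 8.11 in sham (adjusted p = 0.0599). Xirp2, an actin-binding protein of the intercalated disc, measured 12.50 and 12.75 in TAC_DMSO, against 11.40 and 11.68 in sham (adjusted p = 0.0775). Ankrd1, a titin-associated ankyrin repeat protein, differed by 0.35 ± 0.16. In the sarcomere list 0 of 26 genes passed and the median was -0.05. Without TAC_DMSO replicate 1 the median was 0.02. Under median scaling this list lay at 0.25, and at -0.06 relative to all genes there. Its smallest p-values belonged to Smyd1, a methyltransferase of myofibril assembly (1.30 ± 0.26), and the non-muscle myosin heavy chain Myh10 (0.82 ± 0.17), with adjusted p = 0.0673 and 0.0730.

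Among circadian clock genes Ciart and Dbp rose and Arntl fell, and the others tested did not pass. Clock and its partner BMAL1, encoded by Arntl, activate genes through E-boxes, and the period, cryptochrome and CIART proteins repress that activity. Of 10 repressors and outputs tested 2 rose, Ciart and Dbp, and 0 fell. Of 4 activators 1 fell, Arntl, and 0 rose. Ciart measured 8.28 and 8.02 in TAC_DMSO, against 6.09 and 6.21 in sham. Arntl measured 5.13 and 5.73 in TAC_DMSO, against 7.83 and 7.27 in sham. Dbp, a clock output transcription factor, measured 12.31 and 11.99 in TAC_DMSO, against 10.44 and 10.58 in sham. The gaps between groups exceeded the gaps between replicates in all 3 genes, which were picked for passing a test of such gaps.

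The promoter of Ciart is shown because 3 E-boxes (CACGTG) lie in it. The bases from 141 to 14 before the start (chr3:95882242-95882369, minus strand, GRCm38.p6, RefSeq) carry them in capitals.
Ciart: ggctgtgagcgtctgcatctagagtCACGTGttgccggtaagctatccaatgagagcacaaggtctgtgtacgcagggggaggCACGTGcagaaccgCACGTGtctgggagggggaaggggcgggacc
Of the 10 repressors and outputs, 8 had a promoter sequence and 3 of these held an E-box in the 250 bases before the start, Ciart, Per1 and Tef. Of the 4 activators 0 did, and over all genes with a promoter sequence the share was 6.86%.

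The period genes that repress the clock did not pass. Per3 measured 5.58 and 5.72 in TAC_DMSO, was not detected in sham and was at least 1.59-fold higher (adjusted p = 0.0673). Per2 measured 8.54 and 8.26 in TAC_DMSO, against 7.84 and 7.02 in sham (adjusted p = 0.111), with 0.65 on its other probe. Per1 differed by 0.40 ± 0.20 and Cry2, a cryptochrome, by 0.50 ± 0.21. In all 4 genes the groups did not overlap and the constricted arrays were the high ones. That held for 6 of the 10 repressors and outputs, beside 24.9% of all genes. In 2 of the 10, Nr1d1 and Nr1d2, the constricted arrays were the low ones without overlap, beside 29.0% of all genes. Nr1d1, which encodes the BMAL1 repressor REV-ERB alpha, was below sham with 6.88 and 7.66 in TAC_DMSO, against 7.95 and 7.96 in sham (adjusted p = 0.178). Its paralogue Nr1d2 differed by -0.12 ± 0.17, Tef by 0.16 ± 0.19 and Bhlhe40 by 0.10 ± 0.18. Among the activators, Clock differed by -0.44 ± 0.20, Rorb by -0.37 ± 0.18 and Rora by 0.00 ± 0.25. The list of repressors and outputs had a median of 0.45, which was 0.19 in the authors' deposited log2 values. Under median scaling it was 0.85, or 0.54 relative to all genes there. The median of the activators was -0.41, and it was -0.23 without TAC_DMSO replicate 1 and -0.21 in the authors' deposited values. Under median scaling the activators lay at -0.10, or -0.42 relative to all genes there. The part of the time of day at which hearts were taken was not tested.

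**Figure D3:**
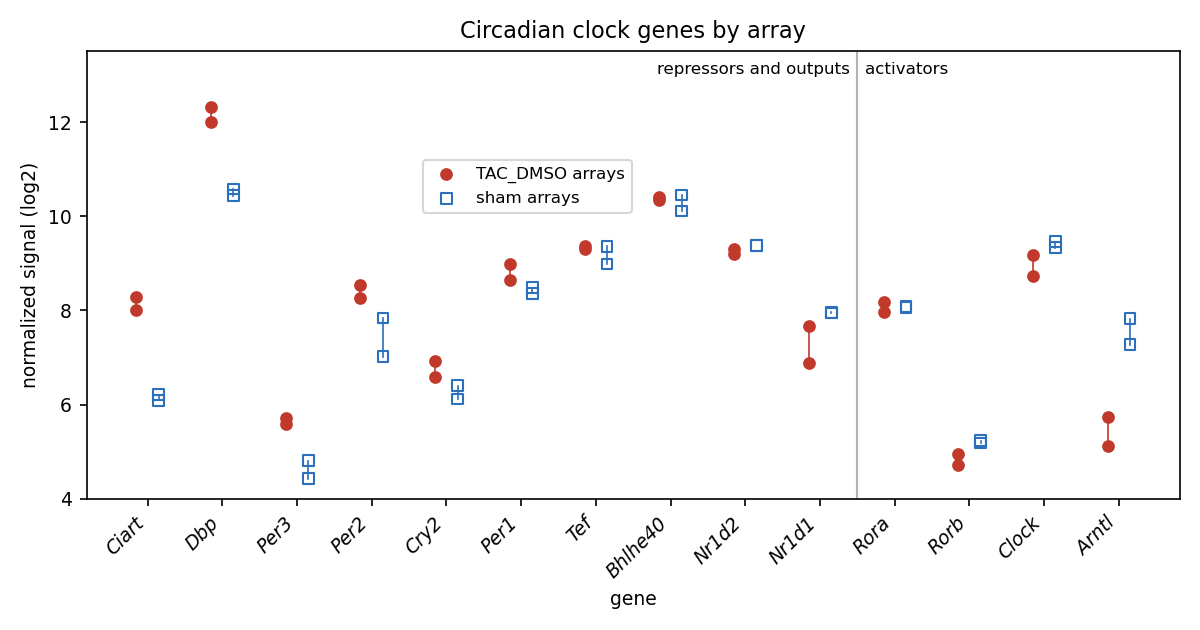
Normalized log2 signal of 14 clock genes on each array, TAC_DMSO as filled circles left of sham as open squares, repressors and outputs left of the grey line and activators right of it. Ciart and Dbp lie higher and Arntl lower in TAC_DMSO, while Rora and Bhlhe40 overlap.

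Fibrillar and associated collagens had the highest list median of the lists described, apart from the erythroid markers (7 tested, median 2.62, 0 called). Of 13 tested 1 rose, Col8a1, and 13 were above 0, with a median of 1.24. In 11 of the 13 the groups did not overlap and TAC_DMSO was high, beside 24.9% of all genes. Col8a1, a short-chain collagen, measured 10.39 and 9.18 in TAC_DMSO, against 6.77 and 6.69 in sham, and its second probe differed by 2.76. Col1a1, the main fibrillar collagen chain, measured 10.34 and 8.20 in TAC_DMSO, against 6.13 and 6.76 in sham (adjusted p = 0.107). Col3a1, another fibrillar chain, measured 9.45 and 7.70 in TAC_DMSO, against 6.59 and 6.76 in sham (adjusted p = 0.110). Col15a1, a collagen of basement membrane zones, measured 8.60 and 7.78 in TAC_DMSO, against 7.19 and 6.72 in sham (adjusted p = 0.104). In each of these genes TAC_DMSO replicate 1 was the highest of the 4 arrays. The median of the list was 0.83 without that array, 1.68 without TAC_DMSO replicate 2 and 0.78 in the authors' deposited log2 values.

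Other matrix genes showed the same array above the rest. Tnc, which encodes tenascin C, is a matricellular gene named after its values were seen. It measured 9.86 and 5.22 in TAC_DMSO, was not detected in sham and was at least 5.89-fold higher. Timp1, an inhibitor of matrix metalloproteases, measured 11.76 and 8.21 in TAC_DMSO, against 6.34 and 6.76 in sham. Lox, the lysyl oxidase that crosslinks collagen, measured 9.85 and 6.58 in TAC_DMSO, against 5.28 and 5.21 in sham. The groups did not overlap in these 3 genes, yet the TAC_DMSO arrays differed from each other by more than replicate 2 differed from sham, and adjusted p-values were 0.197, 0.105 and 0.138. In contrast, replicates were close for Timp3, another inhibitor, with 10.20 and 9.98 in TAC_DMSO, against 9.35 and 9.14 in sham (adjusted p = 0.0862). However, the other 2 probes of Timp3 differed by -0.24 and 0.82. The same held for the basement membrane chain Col4a5, with 9.56 and 9.56 in TAC_DMSO, against 8.74 and 8.75 in sham (adjusted p = 0.0673), although its second probe differed by 0.21.

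The matrix lists beyond the collagens had 0 called genes. Of 21 matricellular and elastic fibre genes 18 were above 0, with a median of 0.61, which was 1.01 without TAC_DMSO replicate 2. Eln, which encodes elastin, differed by 1.39 ± 0.34, Ccn5, a CCN family protein, by 1.64 ± 0.38 and Mfap5, a microfibril glycoprotein, by 2.02 ± 0.47. Ccn2, of the same family as Ccn5, differed by 0.49 ± 0.37 (adjusted p = 0.465) and overlapped. Postn, which encodes periostin, overlapped as well and was detected on 1 of the 2 TAC_DMSO arrays and on 0 sham arrays. Of 14 basement membrane genes 12 were above 0 and 2 below, with a median of 0.60, which was 0.35 in the authors' deposited log2 values. Sparc, a collagen-binding glycoprotein, differed by 2.22 ± 0.45 and Col4a2 by 0.87 ± 0.18. The median of 10 matrix proteases and inhibitors was 0.52, and 0.31 over the mean of all kept probes, with Mmp14, a membrane-bound metalloprotease, at 1.59 ± 0.53 and Mmp9, a gelatinase, at -0.38 ± 0.20. Of 12 genes of collagen processing 10 were above 0 and 2 below, with a median of 0.16, which was -0.01 without TAC_DMSO replicate 1. Loxl1 differed by 1.12 ± 0.42, and the prolyl hydroxylase P4ha1 by -0.66 ± 0.20, with 0.25 on its other probe. Among signalling genes, Tgfb2, a TGF-beta ligand, measured 7.42 and 6.60 in TAC_DMSO, against 5.84 and 5.62 in sham (adjusted p = 0.0764), and 0 of 27 genes of that list passed. The part of fibroblast number in these values was not tested. Of 13 fibroblast markers tested 10 were above 0, with a median of 0.55, which was 0.08 without TAC_DMSO replicate 1. The log2 of their summed signal was 14.07 and 13.47 in TAC_DMSO, against 13.50 and 13.59 in sham.

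Interferon-induced genes lay above sham more often than below. Interferons act through JAK and STAT proteins and a motif called the ISRE to induce antiviral genes. Of 25 tested 1 rose, Rsad2, and 24 were above 0, with a median of 0.80. In 19 of the 25 the groups did not overlap and TAC_DMSO was high, beside 24.9% of all genes. Rsad2, which encodes the antiviral enzyme viperin, measured 8.57 and 9.30 in TAC_DMSO, against 7.0 and 6.95 in sham. The chemokine gene Cxcl9 measured 6.86 and 7.47 in TAC_DMSO, against 5.55 and 5.33 in sham (adjusted p = 0.0539). Usp18, which removes the ubiquitin-like ISG15 from proteins, measured 8.33 and 8.16 in TAC_DMSO, against 6.83 and 6.55 in sham (adjusted p = 0.0544), and its other probe differed by 0.86. Ifit2, a member of the family with tetratricopeptide repeats, measured 8.02 and 8.35 in TAC_DMSO, against 6.51 and 6.67 in sham (adjusted p = 0.0544). The median deviation of the list from each gene's mean over the 6 arrays was 0.32 and 0.38 in TAC_DMSO, against -0.68 and -0.26 in sham. Over the alternative settings the list median ranged from 0.38, in the authors' deposited log2 values, to 1.13.

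The promoter of Rsad2 is shown because it holds an ISRE (GAAANNGAAA, read here on the opposite strand). The bases from 145 to 86 before the start (chr12:26456538-26456597, minus strand, GRCm38.p6, RefSeq) carry it in capitals.
Rsad2: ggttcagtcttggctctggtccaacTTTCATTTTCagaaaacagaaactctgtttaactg
Of the 25 interferon genes, 19 had a promoter sequence and 10 of these held an ISRE on either strand in the 250 bases before the start. They included Cxcl10, Gbp2, Ifit3, Isg15 and Stat2. Over all genes with a promoter sequence the share was 3.46%. Genes of this list are known for induction through the motif.

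Genes of antigen presentation lay above sham as well, with 18 of 20 above 0, 0 called and a median of 0.66. Groups did not overlap, with TAC_DMSO high, in 14 of the 20, beside 24.9% of all genes. Psmb8 and Psmb9 encode proteolytic subunits of the immunoproteasome, which cuts peptides for MHC class I. Psmb8 measured 8.35 and 8.65 in TAC_DMSO, against 6.94 and 7.43 in sham (adjusted p = 0.0801). Its other kept probe differed by 0.14, and the mean over both probes by 0.73. Psmb9 measured 7.84 and 8.14 in TAC_DMSO, against 6.87 and 7.08 in sham (adjusted p = 0.0771). Psme2, a subunit of the proteasome activator, measured 9.45 and 9.60 in TAC_DMSO, against 8.77 and 8.79 in sham (adjusted p = 0.0764). The peptide transporter Tap1 was not detected in sham and was at least 1.55-fold higher (adjusted p = 0.0881). On the TAC_BIX arrays Psmb9 measured 6.58 and 7.09 and Psme2 8.52 and 8.42. For this list TAC_DMSO replicate 2 was the higher array, with a median deviation of 0.59 beside 0.22 for replicate 1, whereas both sham arrays lay at -0.21. The list median was 0.36 in the authors' deposited log2 values.

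Leukocyte markers did not separate the groups as these lists did. Of 14 tested 8 were above 0, with a median of 0.32, which was -0.33 without TAC_DMSO replicate 1. Groups did not overlap with TAC_DMSO high in 1 (24.9% of all genes) and with TAC_DMSO low in 2 (29.0%). Their median deviation was 0.65 and -0.28 in TAC_DMSO, against -0.42 and 0.53 in sham, and the log2 of their summed signal was 14.60 and 13.70 in TAC_DMSO, against 13.40 and 14.00 in sham. Ptprc, Itgam and Cd3e, which define leukocytes, myeloid cells and T cells, had no probe that passed the detection filter. Retnla, a resistin-like protein of alternatively activated macrophages, was the 1 called gene and fell, with 4.58 and 5.11 in TAC_DMSO, against 8.17 and 7.20 in sham. It was detected on 1 of the 2 TAC_DMSO arrays. Lyve1, a receptor of resident macrophages and lymphatic endothelium, measured 7.76 and 7.37 in TAC_DMSO, against 8.14 and 8.71 in sham (adjusted p = 0.144). In the other direction, Lyz2 measured 12.41 and 11.47 in TAC_DMSO, against 10.78 and 11.43 in sham, with 0.16 and 0.21 on its other probes. Aif1 differed by 0.99 ± 0.45 and overlapped, with 1.04 on its other probe.

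Endothelial markers had 0 called genes of 18. Of these 15 were above 0, with a median of 0.51, which was 0.26 in the authors' deposited log2 values. In 10 of the 18 the groups did not overlap and TAC_DMSO was high, beside 24.9% of all genes. Ly6c1, a surface antigen of microvascular endothelium, measured 9.84 and 9.97 in TAC_DMSO, against 8.72 and 8.85 in sham (adjusted p = 0.0539). Ramp2, the partner of the adrenomedullin receptor, measured 9.85 and 10.05 in TAC_DMSO, against 8.88 and 8.61 in sham (adjusted p = 0.0544). Gpihbp1, which holds lipoprotein lipase on capillaries, measured 8.16 and 8.74 in TAC_DMSO, against 7.01 and 6.15 in sham (adjusted p = 0.0544). Groups did not overlap in these 3 genes. Vwf, the von Willebrand factor gene, went the other way at -0.77 ± 0.32 and is named after its values were seen. The pericyte gene Rgs5, a regulator of G protein signalling, measured 8.27 and 8.79 in TAC_DMSO, against 6.54 and 5.07 in sham (adjusted p = 0.0544). Myh11, the smooth muscle myosin, measured 5.74 and 5.92 in TAC_DMSO, against 6.66 and 6.37 in sham (adjusted p = 0.109). Of 11 smooth muscle and pericyte markers tested 0 passed, 8 were above 0 and 3 below, with a median of 0.19. They ran from -0.93 (Abcc9) to 2.73 (Rgs5). The log2 of the summed endothelial signal was 12.97 and 13.14 in TAC_DMSO, against 12.57 and 12.45 in sham, and the part of vessel cell number in these values was not tested.

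Caveolin genes, which encode the coat of plasma membrane caveolae, had 1 called member of 7. Cav2 measured 5.96 and 6.32 in TAC_DMSO, against 4.65 and 4.38 in sham, where it was not detected, and was at least 2.23-fold higher. Cav1, its partner in non-muscle caveolae, measured 10.85 and 10.98 in TAC_DMSO, against 10.12 and 9.63 in sham (adjusted p = 0.0756). Cav3, the muscle caveolin, named after its values were seen, measured 9.23 and 8.89 in TAC_DMSO, against 9.20 and 9.19 in sham. Cavin3 differed by 0.90 ± 0.24 and Cavin4, the muscle cavin, by -0.32 ± 0.22, which was 0.08 under median scaling. Cav1 and Cav2 are also expressed in endothelium, whose markers are given above.

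**Figure D4:**
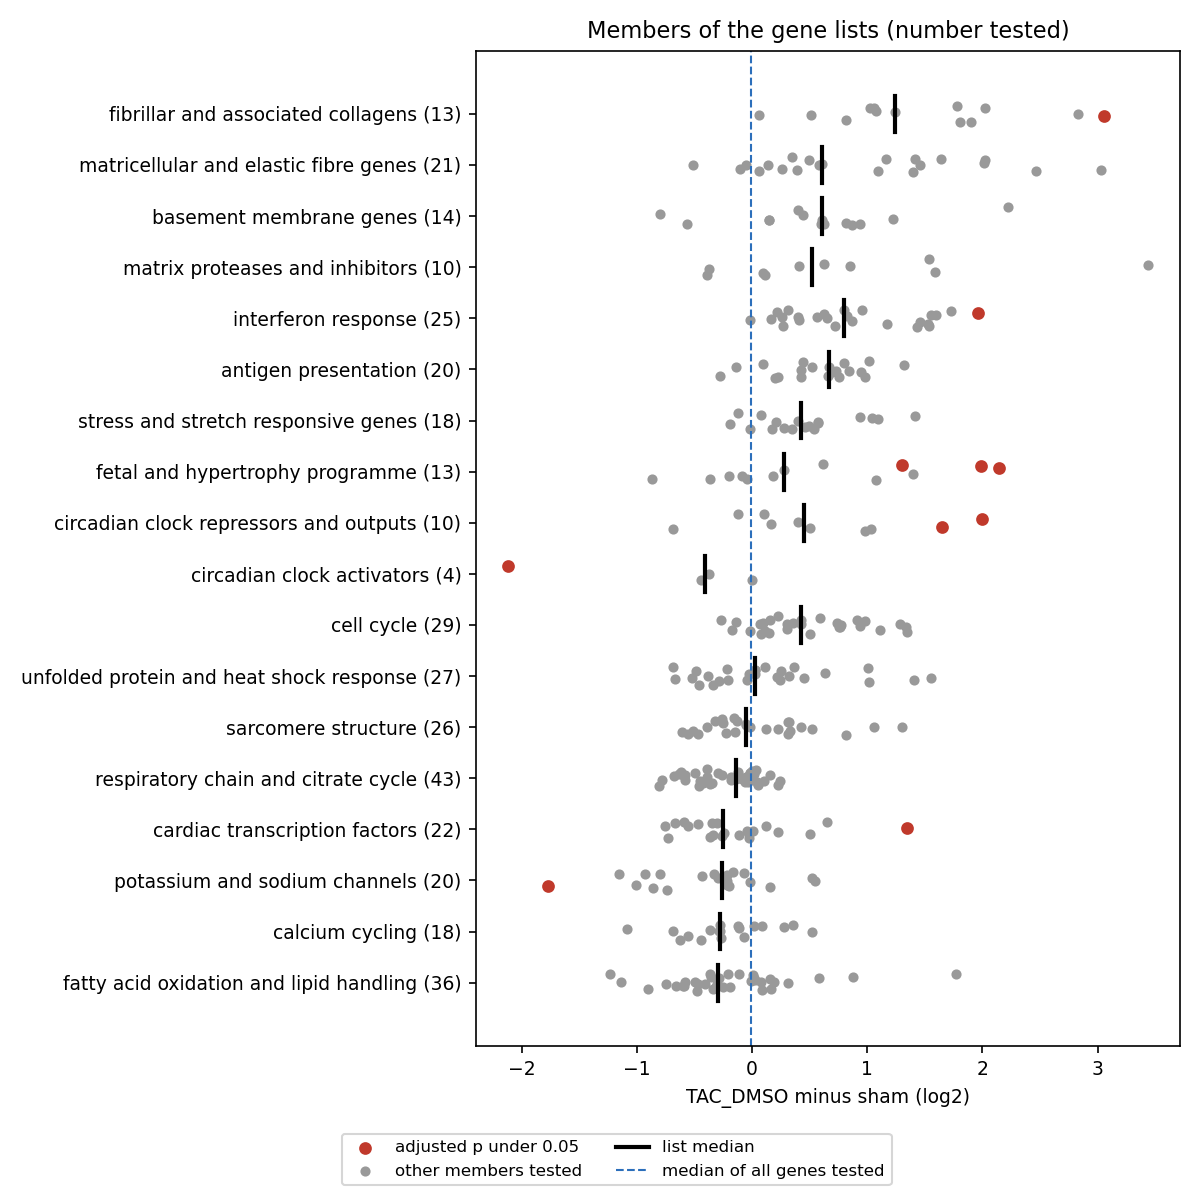
Log2 difference TAC_DMSO minus sham of each member of 18 gene lists, with the number tested in brackets, members past an adjusted p of 0.05 in red, list medians as black bars and the median of all genes (-0.01) as a dashed line. Collagens lie farthest right with a median of 1.24, and fatty acid genes farthest left among lists of over 4 genes with a median of -0.30.

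Fatty acid genes lay below sham more often than above. Of 36 genes of fatty acid oxidation and lipid handling 0 passed and 24 were below 0, beside 51.5% of all genes. Their median was -0.30. In 20 of the 36 the groups did not overlap and TAC_DMSO was low, beside 29.0% of all genes. Cd36, the fatty acid translocase, measured 6.03 and 5.77 in TAC_DMSO, against 7.04 and 7.04 in sham (adjusted p = 0.0513). Acads, the short-chain acyl-CoA dehydrogenase, measured 10.12 and 10.19 in TAC_DMSO, against 11.03 and 11.09 in sham (adjusted p = 0.0649), and its other probe differed by -0.43. Acot1, a cytosolic acyl-CoA thioesterase, measured 9.25 and 9.37 in TAC_DMSO, against 10.37 and 10.71 in sham (adjusted p = 0.0971). The constricted arrays were the low ones in each, and the replicates of both groups were close. Angptl4, an inhibitor of lipoprotein lipase, stood at the other end with 8.78 and 8.10 in TAC_DMSO, against 6.65 and 6.69 in sham (adjusted p = 0.0608). The list median was -0.17 without TAC_DMSO replicate 1. Under median scaling the median of all genes moved to 0.31, and the list lay 0.06 above 0 and -0.25 relative to all genes.

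Of 43 genes of the respiratory chain and citrate cycle 0 passed and 34 were below 0, with a median of -0.14, which was 0.11 under median scaling and -0.21 relative to all genes there. It ranged from -0.28, without sham replicate 2, to -0.09, without sham replicate 1, and was -0.24 without TAC_DMSO replicate 2 and -0.09 without TAC_DMSO replicate 1. Pdha1, the E1 alpha subunit of pyruvate dehydrogenase, measured 12.93 and 13.38 in TAC_DMSO, against 13.77 and 13.81 in sham (adjusted p = 0.131). Sdha, the flavoprotein of complex II, was not detected in TAC_DMSO, measured 5.59 and 5.38 in sham and was at least 1.53-fold lower in TAC_DMSO (adjusted p = 0.0752). The next 4 called genes belonged to none of the lists and are placed here by their roles, after their values were seen. Acsf2, an acyl-CoA synthetase, measured 5.50 and 5.50 in TAC_DMSO, against 6.61 and 6.62 in sham, and fell by 1.12 ± 0.16 (adjusted p = 0.0499). Slc25a46, an outer mitochondrial membrane protein, measured 5.12 and 4.81 in TAC_DMSO, against 6.24 and 6.15 in sham, fell by 1.23 ± 0.18 and was detected on 1 of the 2 TAC_DMSO arrays. Stard4, a sterol carrier, was not detected in sham and was at least 2.07-fold higher. Hsd3b2, a 3 beta-hydroxysteroid dehydrogenase, measured 9.78 and 9.88 in TAC_DMSO, against 11.25 and 11.20 in sham, a 2.63-fold fall (adjusted p = 0.0485). Of 21 glycolysis genes 0 passed, with a median of -0.05, which was 0.37 under median scaling and 0.05 relative to all genes there.

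Irs2 and Dusp5 fell, and Eif4ebp1, Lsm12 and Zc3h13 rose. They are set together after their values were seen and stand for no list. Irs2, an adaptor of the insulin and IGF-1 receptors, measured 7.13 and 7.24 in TAC_DMSO, against 8.68 and 8.53 in sham, and fell 2.68-fold (adjusted p = 0.0439). Dusp5, a nuclear phosphatase of ERK, measured 6.26 and 6.58 in TAC_DMSO, against 7.71 and 7.59 in sham, and fell 2.35-fold (adjusted p = 0.0499). Eif4ebp1, a repressor of cap-dependent translation, measured 12.03 and 11.90 in TAC_DMSO, against 10.87 and 10.81 in sham, and rose 2.18-fold (adjusted p = 0.0499). The gap between groups was more than the spread of replicates in all 3, which were picked for passing a test of such gaps. On the TAC_BIX arrays Eif4ebp1 averaged 11.08, Irs2 measured 7.53 and 7.39, and Dusp5 6.42 and 6.42. Lsm12, an RNA-binding protein of the Lsm family, measured 8.30 and 8.40 in TAC_DMSO, against 7.12 and 7.11 in sham, and rose by 1.23 ± 0.17, with 7.54 and 7.41 on the TAC_BIX arrays. Its other 3 probes differed by 0.39, 0.68 and 1.22. Zc3h13, a subunit of the RNA N6-adenosine methyltransferase complex, measured 7.50 and 7.43 in TAC_DMSO, against 6.03 and 6.09 in sham, and its second probe differed by 1.39, close to the 1.41 of the first.

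Tbx20 and Arid4a rose, and Ubn2, Zhx2 and Pou5f2 fell. Tbx20, a T-box factor of heart development, measured 7.19 and 7.49 in TAC_DMSO, against 6.07 and 5.92 in sham, and was the 1 called gene of 22 cardiac transcription factors. It rose by 1.34 ± 0.20 (adjusted p = 0.0499), but its other 2 probes differed by 0.06 and 0.96. Most of that list lay the other way, with 16 below 0 and a median of -0.25. The median was -0.04 without sham replicate 1 and -0.15 without TAC_DMSO replicate 1. Under median scaling it was 0.11, or -0.20 relative to all genes there. Klf15, a Krüppel-like factor of cardiac metabolism, measured 5.70 and 5.43 in TAC_DMSO, against 6.45 and 6.19 in sham (adjusted p = 0.120). Irx4, a ventricular homeobox factor, differed by -0.59 ± 0.18. Arid4a, a retinoblastoma-binding corepressor subunit, measured 7.18 and 7.47 in TAC_DMSO, against 6.19 and 6.05 in sham, and rose by 1.21 ± 0.18. Ubn2, of the HIRA histone chaperone complex, measured 5.94 and 5.80 in TAC_DMSO, against 7.07 and 7.19 in sham, and fell by 1.26 ± 0.17, though its other probes differed by -0.52 and -0.03. Zhx2, a zinc finger and homeobox repressor, measured 6.27 and 6.28 in TAC_DMSO, against 7.67 and 7.88 in sham. Pou5f2, a POU domain gene, measured 4.87 and 4.76 in TAC_DMSO, against 6.33 and 5.93 in sham, and was detected on 1 of the 2 TAC_DMSO arrays.

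Potassium and sodium channel genes were mostly below sham. Of 20 tested 1 fell, Kcnv2, 0 rose and 17 were below 0. In 10 of the 20 the groups did not overlap and TAC_DMSO was low, beside 29.0% of all genes. The list median was -0.26, which was 0.13 under median scaling and -0.19 relative to all genes there. Kcnv2, a silent subunit that modifies voltage-gated channels, measured 6.05 and 6.55 in TAC_DMSO, against 7.88 and 8.27 in sham. Kcnk3, the background channel TASK-1, measured 9.25 and 9.72 in TAC_DMSO, against 10.63 and 10.66 in sham (adjusted p = 0.0754). Kcnj3, a subunit of the acetylcholine-gated channel, measured 5.57 and 5.80 in TAC_DMSO, against 6.43 and 6.65 in sham (adjusted p = 0.0724). Abcc9, the sulfonylurea receptor of ATP-sensitive channels, differed by -0.93 ± 0.22, with -0.53 on its other probe. The median was -0.46 without TAC_DMSO replicate 2 and also without sham replicate 2, and -0.39 without sham replicate 1. It was -0.19 without TAC_DMSO replicate 1 and also in the authors' deposited log2 values. In the calcium cycling list 0 of 18 genes passed. Pln, which encodes phospholamban, the inhibitor of the sarcoplasmic calcium pump, measured 13.08 and 13.36 in TAC_DMSO, against 13.71 and 13.97 in sham (adjusted p = 0.122). Hrc, a calcium-binding protein of the sarcoplasmic reticulum, differed by -0.68 ± 0.22, and Atp2a2, which encodes the pump, by 0.08 ± 0.17. The median of that list was -0.28, which was -0.11 without TAC_DMSO replicate 1 and 0.02 over the mean of all kept probes. Under median scaling it was 0.12, or -0.19 relative to all genes there.

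Dctn1, the large subunit of the dynein cofactor dynactin, measured 8.71 and 8.38 in TAC_DMSO, against 6.82 and 6.66 in sham, with 7.48 and 7.25 on the TAC_BIX arrays. Afdn, the junction protein afadin, measured 9.35 and 9.48 in TAC_DMSO, against 8.28 and 8.07 in sham, with 8.10 and 8.19 on the TAC_BIX arrays. Its other probe differed by -0.10. Tuba8, an alpha-tubulin, measured 10.36 and 10.68 in TAC_DMSO, against 11.73 and 11.79 in sham, and its second probe differed by -1.45. Itgb6, the integrin beta 6 subunit, fell with differences of -1.47 and -1.29 on its other 2 probes. Sppl2a, an intramembrane protease, measured 7.98 and 7.91 in TAC_DMSO, against 6.51 and 6.73 in sham, and rose by 1.33 ± 0.18, with 0.30 on its other probe.

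Calcoco1, a receptor for autophagy of the endoplasmic reticulum, measured 7.14 and 7.34 in TAC_DMSO, against 8.37 and 8.39 in sham, and fell by 1.14 ± 0.17 (adjusted p = 0.0499). Pigk, the catalytic subunit of GPI transamidase, measured 5.12 and 5.21 in TAC_DMSO, against 6.39 and 6.84 in sham, while its other probe differed by 0.58. Ggact, a gamma-glutamylamine cyclotransferase, measured 7.64 and 7.84 in TAC_DMSO, against 6.37 and 6.15 in sham, while its other probe differed by 0.05. The direction of Pigk and of Afdn, and the size of the difference for Ggact, therefore rest on 1 probe each. Mpst, which forms hydrogen sulfide from mercaptopyruvate, measured 5.01 and 5.15 in TAC_DMSO, against 6.36 and 6.82 in sham. Dhdh, a dihydrodiol dehydrogenase, measured 7.81 and 7.99 in TAC_DMSO, against 9.61 and 9.45 in sham, with -1.72 and -0.17 on its other probes. Ahsg, the plasma protein fetuin A of liver, measured 5.12 and 4.79 in TAC_DMSO, against 6.13 and 6.22 in sham, and its second probe differed by -1.10. Gask1b, a Golgi-associated kinase-like protein, and the homeobox gene Rhox5 rose 3.38-fold and 3.21-fold. Zfp827, a zinc finger gene, was not detected in TAC_DMSO and was at least 2.49-fold lower, and Adam20 and Celsr2 were detected on 1 of the 2 TAC_DMSO arrays.

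Mpp5, Cox6b2 and Usp38 lay just outside the threshold. Mpp5, a scaffold of cell polarity complexes, measured 6.99 and 7.06 in TAC_DMSO, against 5.73 and 5.91 in sham (adjusted p = 0.0511), 2.31-fold higher. Cox6b2, a testis isoform of a cytochrome oxidase subunit, was not detected in TAC_DMSO, measured 5.80 and 5.44 in sham and was at least 1.67-fold lower in TAC_DMSO (adjusted p = 0.0539). Usp38, a ubiquitin-specific protease gene, measured 5.98 and 6.40 in TAC_DMSO, against 7.45 and 7.57 in sham (adjusted p = 0.0539), but its other probe differed by 0.36.

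Cell cycle genes did not pass, with 0 of 29 called, 25 above 0 and a median of 0.42. Ccnd1 and Ccnd2, the D-type cyclins of G1, had the constricted arrays high and no overlap. Ccnd1 measured 9.89 and 9.68 in TAC_DMSO, against 9.0 and 9.04 in sham (adjusted p = 0.0764). Ccnd2 measured 10.63 and 11.10 in TAC_DMSO, against 10.07 and 9.85 in sham (adjusted p = 0.0775), and its other 3 probes differed by 0.29, 0.40 and 0.79. Aurka, a mitotic kinase, measured 6.16 and 5.33 in TAC_DMSO, against 4.47 and 5.15 in sham, where it was detected on 1 of the 2 arrays (adjusted p = 0.172). The list median was 0.09 without sham replicate 1 and 0.71 without sham replicate 2, and 0.18 without TAC_DMSO replicate 1 and 0.67 without TAC_DMSO replicate 2. Leukocyte markers differed between the same arrays, as given above, and their part in the cell cycle values was not tested.

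Of 27 genes of the unfolded protein and heat shock responses 0 passed and 15 were above 0, with a median of 0.03, which was 0.32 without sham replicate 1 and -0.10 without TAC_DMSO replicate 1. The 4 smallest p-values belonged to genes above sham. Calr, the endoplasmic reticulum chaperone calreticulin, measured 7.98 and 7.61 in TAC_DMSO, against 6.35 and 6.43 in sham (adjusted p = 0.0584). Asns, the asparagine synthetase induced by ATF4, measured 7.07 and 6.24 in TAC_DMSO, against 5.52 and 4.68 in sham, where it was detected on 1 of the 2 arrays (adjusted p = 0.0775). Its other probe differed by 0.77. Chac1, another ATF4 target, which degrades glutathione, differed by 1.00 ± 0.27, and the disulfide isomerase Pdia4 by 1.02 ± 0.28.

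**Figure D5:**
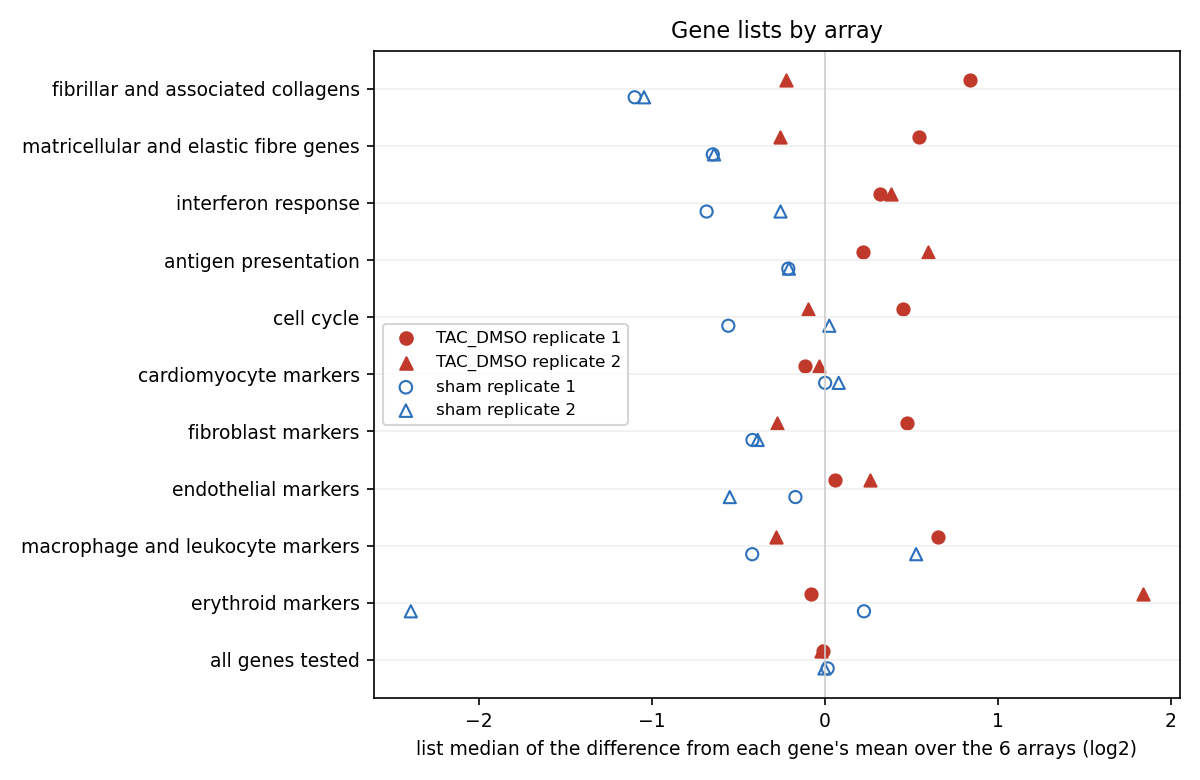
For each list, the median over its genes of the difference from the gene's mean over the 6 arrays (log2), with TAC_DMSO filled above sham open, circles for replicate 1 and triangles for replicate 2. Collagens lie at 0.84 and -0.22 in TAC_DMSO, against -1.10 and -1.05 in sham, while leukocyte markers of the groups interleave and erythroid markers span 1.84 (TAC_DMSO replicate 2) to -2.39 (sham replicate 2).

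Several called genes had TAC_BIX levels near those of sham, and others near those of TAC_DMSO. All of these comparisons share the sham arrays, so the levels are given side by side only. Acta1 measured 14.79 and 14.76 on the TAC_BIX arrays, Ciart 8.16 and 8.09, Arntl 4.69 and 5.29, Col8a1 9.81 and 10.49, Retnla 5.04 and 4.56, and Tbx20 7.52 and 7.82. Rsad2 measured 7.82 and 8.29 there, between its TAC_DMSO and sham levels. Slc25a46 measured 6.07 and 5.94 on the TAC_BIX arrays.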

How the data were processed

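The authors deposited, per the file headers, an average bead signal intensity and a detection p-value for each probe and array, and a second table of processed log2 values. GenomeStudio 2011.1, limma and lumi were used, per the submitters' processing notes, and the sources used here give no further steps. Intensities were background corrected from the detection p-values (offset 16), quantile normalized and log2 transformed with neqc (limma 3.58.1, R 4.3.3). The 19273 probes detected at p under 0.05 on 2 or more of the 6 arrays were kept. Of these, 16446 had 1 gene, and a gene was its kept probe with the highest mean (10538 genes). Probes were named from the platform's annotation, matched to RefSeq GRCm38.p6 by Entrez identifier. A model of group means over the 6 arrays was fitted (lmFit, eBayes, 3 residual and 4.62 prior degrees of freedom), two-sided, Benjamini-Hochberg over all genes. Values after ± are the model's standard errors. A gene not detected on both arrays of a group is given as "at least" a fold: the other group's mean is set against the mean, per array, of its own signal or the lowest detected signal, whichever is higher. The number of arrays limits the precision, and an exact permutation test of 2 against 2 arrays cannot give a p under 0.333.

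The comparison, gene lists, tests and the naming rule were chosen with earlier results of these data known. The rule named every called gene except provisional symbols, up to 4 members with the smallest p of each list described, all clock and fetal genes, a panel of 11 hypertrophy and fibrosis genes and the 5 genes next to the threshold. Tnc, Vwf, Cav3, Tnnt3 and Tnni2 were named outside it. Lists are described by counts and medians, with no test. The sources used here do not say whether same-numbered arrays were paired. Replicate 1 minus replicate 2 correlated across genes at -0.156 (TAC_DMSO with TAC_BIX), -0.243 (TAC_DMSO with sham) and 0.0863 (TAC_BIX with sham). Red cell and leukocyte RNA, which differed between replicates, enters these values, so they cannot settle the pairing. The sources used here give no slide or scan batch. Promoter windows came from RefSeq and were searched on both strands over 250 bases before the start.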

Additional observations from a re-analysis of the deposited data

How the results depend on the processing

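The 43 calls became 284 with log2 quantile values and no background correction, 275 with an offset of 50, 952 under median scaling, 93 in the authors' processed log2 values, 103 among genes detected on both arrays of a group and 426 with eBayes' trend and robust options. They became 1 with no detection filter and 42 with the mean of all kept probes. No gene (0) passed in limma with only the 4 arrays or with the replicate block (2203 and 2117 at an unadjusted p under 0.05), and 0 passed with the block of crossed numbers on the 4 arrays, an alternative chosen after seeing the data (2540). Leaving out 1 array gave 0 to 166 calls. The share of higher genes was 51.2% of the 43 calls, 97.5% under median scaling, where the median of all genes was 0.31, and 77.1% without TAC_DMSO replicate 2. Each named called gene kept its direction in 17 settings and passed in 4 to 9 of them. The direction was fixed in advance where only the model or its TAC_BIX arrays changed, since the differences stayed the same. It was also fixed where 1 TAC_DMSO or sham array was left out, since the groups did not overlap in these genes. Of the 43 genes, 3 were below detection on both arrays of a group and 6 were detected on 1 of 2, which limits the size of their differences. Of the list medians under these settings, 492 moved by less than the replicate spread and 86 by more. The 492 include the settings that changed only the model or its TAC_BIX arrays, where no median could move. Among named genes that did not pass, some turned sign. With the mean of all kept probes Atp2a2 was -0.0014, Ldb3 0.096 and Tef -0.028. Under median scaling Actc1 was 0.11, Cavin4 0.082, Myh6 0.054, Myl4 0.21, Nr1d2 0.29 and Tnnt1 0.037. Leaving out 1 array, Acta2 ranged over -0.12 to 0.48, Myl4 -0.57 to 0.17, Postn -0.14 to 0.84, Tagln -0.23 to 0.78, Rora -0.098 to 0.10, Actc1 -0.25 to 0.15, Bhlhe40 -0.071 to 0.27, Tef -0.028 to 0.35 and Atp2a2 -0.019 to 0.19. The causes were not tested.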

Other observations

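Of the kept probes, 2827 had no single gene in the annotation and took no part in the gene tests. In a fit over all 19273 kept probes, chosen after seeing the data, 294 probes passed an adjusted p of 0.05, and 68 of these belonged to the 2827, 30 higher and 38 lower in TAC_DMSO. They are reported as counts, since no gene is named for them.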
